A study of Mus musculus with 2 samples.

Results

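Mir126a and Mir126b are a pair of microRNA genes that lie over each other on opposite strands within Egfl7, a gene of the vascular endothelium. Both were taken by gene name from the annotation of the count tables, which makes 2 of the 2202 microRNA genes counted. Small RNA under 30 bases was sequenced from the gastrocnemius, a calf muscle, of adult male mice labelled strain 5xFAD/CAST, aged 8 to 10 months. 5xFAD is a transgenic line with amyloid deposition in the brain, driven there by a neuronal promoter, and CAST is a wild-derived strain. Whether the sampled mice carried the transgene is not given. The only group has 2 libraries, numbered as biological replicates 1 and 2, from separate tissue samples under 1 donor record. Whether these were separate animals is not stated, so the spread between them may be technical, and no contrast of conditions exists.

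A microRNA is cut from a hairpin transcript, and either arm of the hairpin can be loaded into the silencing complex, where the seed (bases 2 to 8 of the mature strand) chooses the target messages. miR-126 is the best known microRNA of endothelial cells, is made from an intron of its host Egfl7, and is known to keep vessels intact and to raise the response to VEGF by repressing Spred1 and Pik3r2, which dampen that pathway. In skeletal muscle its main known source is the capillary bed around the fibres. In tissue RNA, fewer endothelial cells and less microRNA per cell cannot be told apart.

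Mir126a (ENSMUSG00000065540.1) lies at chr2:26591357-26591429 of mm10 on the plus strand, the strand of Egfl7 (ENSMUSG00000026921.18, chr2:26580014-26593120). Mir126b (ENSMUSG00000105799.1) lies at chr2:26591363-26591420 on the minus strand. Its 58 bases fall wholly within the 73 bases of Mir126a, which extends 6 bases further on one side and 9 on the other. Of 19 annotated Egfl7 transcripts, 8 hold both genes in an intron (intron 7 of 600 bases in the longest coding form), 1 retained-intron transcript holds them in an exon, and 10 do not reach them. The read-through gene Gm20532 spans the place on the same strand.

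The sequences show what a read needs in order to be placed on one strand or the other. They are from RefSeq on GRCm38.p6, and both hairpins were identical to the GENCODE M21 transcripts of the same genes. In the hairpins, capitals mark the mature arms that the RefSeq table holds.
Mir126a hairpin: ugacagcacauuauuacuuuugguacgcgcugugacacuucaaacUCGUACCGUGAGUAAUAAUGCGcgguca
Mir126b hairpin: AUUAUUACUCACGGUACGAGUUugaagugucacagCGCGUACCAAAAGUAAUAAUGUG
In the mature strands, capitals mark the seed.
mmu-miR-126a-3p: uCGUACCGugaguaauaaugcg
mmu-miR-126b-5p: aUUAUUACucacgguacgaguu
mmu-miR-126b-3p: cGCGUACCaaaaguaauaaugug

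Read as the reverse complement, the Mir126b hairpin is bases 7 to 64 of the Mir126a hairpin. miR-126a-3p and miR-126b-5p lie opposite each other over 19 bases, while miR-126b-3p faces the other arm of Mir126a. Because each hairpin pairs with itself, its reverse complement resembles it, but the likeness is partial. The longest run that both hairpins share, each read 5′ to 3′, is 10 bases, and each of the 3 mature strands has at least 5 mismatches against every position of the other hairpin. No other mature name among 1679 in the RefSeq table has the seed of any of the 3. That table holds no mature strand from the other arm of Mir126a, so its seed and mismatches were not compared. Outside the locus, the longest run that either gene shares with another microRNA gene is 12 bases, with Mir6405. A full-length mature read of this locus is therefore identical to no other annotated microRNA gene. Places outside the annotated microRNA genes were not searched, and CAST alleles that differ from the reference were not examined.

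Both hairpins folded to a single stem and loop. The predicted minimum free energy was -31.2 kcal/mol with 27 base pairs for Mir126a and -19.3 kcal/mol with 21 base pairs for Mir126b. Per base this was -0.427 and -0.333 kcal/mol, beside a median of -0.406 over the 1005 hairpins of the table. Of these hairpins, 40.3% had a lower energy per base than Mir126a and 77.4% a lower one than Mir126b. Mir126b was thus the less stable of the pair by prediction, and its gene is also the shorter one.

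**Figure D1:**
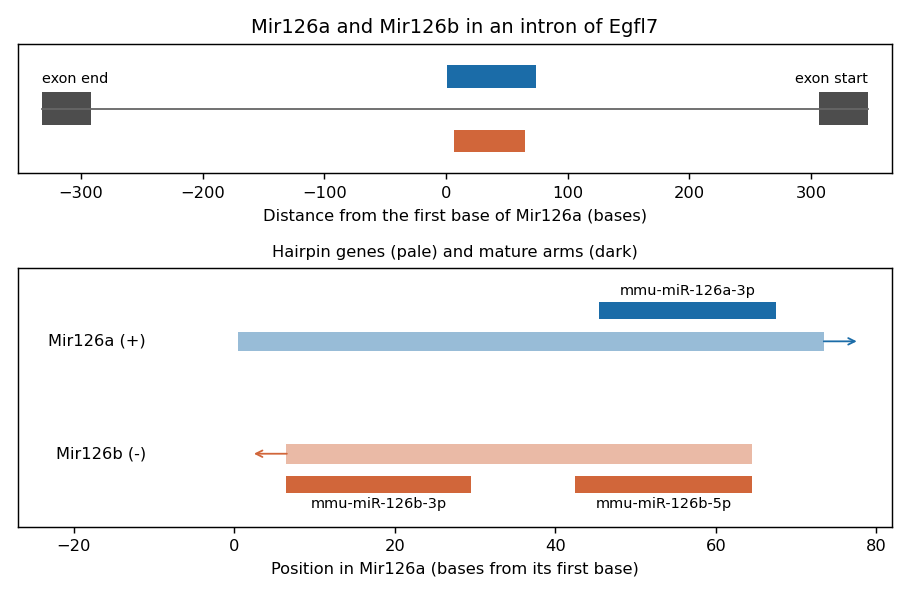
Upper panel: the Egfl7 intron of 600 bases with Mir126a (blue, above) and Mir126b (orange, below) against the distance in bases from the first base of Mir126a, with the adjoining ends of the flanking exons in grey. Lower panel: the hairpin genes (pale, with arrows for the direction of transcription) and the mature arms in the RefSeq table (dark), where miR-126a-3p and miR-126b-5p share 19 bases on opposite strands.

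The tables give 3 read counts for each gene, 1 for both strands together, 1 for the strand of the gene (sense) and 1 for the opposite strand. Of 6119818 reads in replicate 1, 1157420 were sense reads of microRNA genes, and of 6632802 in replicate 2, 1193393 were. Reads that align to several places, counted in no gene, made up 60.2% and 63.2% of all reads. Levels are sense reads per 1000000 sense reads of microRNA genes (CPM). Depth matters here for Mir126b: the floor used for a count of 0 is 3 counts, which is 2.59 CPM in replicate 1 or 2.51 CPM in replicate 2. These limits and the intervals below cover counting error only, since reads amplified by PCR are not independent molecules.

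Mir126a, the source of miR-126, had 93483 sense reads in replicate 1 and 164298 in replicate 2. This was 80768 CPM (exact Clopper-Pearson 95% interval 80273 to 81266) and 137673 CPM (137055 to 138292), a mean of 109221 ± 40238 (SD, n = 2). It was the second gene of 2202 in both libraries, behind Mir378a, an intronic microRNA of the metabolic gene Ppargc1b. This rank leaves out reads that align to several places, 60.2% and 63.2% of all reads in replicates 1 and 2. Of the 2202 genes, 1087 share a run of 20 bases with a gene at another place, and Mir126a does not. Its rank among all microRNAs of the muscle is therefore not known. In replicate 1 the next genes below it were Mirlet7g at 63565 CPM and Mirlet7i at 56191 CPM, and in replicate 2 Mir22 at 108061 CPM and Mirlet7g at 61566 CPM. As a share of all reads sequenced, the reads of no gene included, Mir126a made up 1.53% (1.52 to 1.54) of replicate 1 and 2.48% (2.47 to 2.49) of replicate 2. The order of the libraries was therefore the same under both denominators.

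Mir126b, the opposite-strand gene, had 0 sense reads in replicate 1 and 1 in replicate 2. Its level was 0 CPM in replicate 1 and 0.838 CPM (0.0212 to 4.67) in replicate 2. Both values lie under the limit for a count of 0, so Mir126b was not detectable at this depth. With Mir126b set at the floor of 3 counts, Mir126a had 31161-fold more reads than Mir126b in replicate 1. That value rests on the floor and is not the end of an exact interval, unlike the limits given for replicate 2. In replicate 2 the ratio was 164298, with a 95% counting interval of 29488 to 6489463.

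The column chosen decides which of these genes appears to be expressed. In the column of both strands, Mir126a had 0 reads in replicate 1 and 2 in replicate 2, and Mir126b had 0 in each. In the opposite-strand column Mir126b had 93483 and 164296 reads, the second largest value of that column in both libraries, and Mir126a had 0 and 1. Those counts of Mir126b repeat the plus-strand reads of Mir126a: they equal the sense count of Mir126a in replicate 1 and fall 2 reads short of it in replicate 2. The 2 reads are as many as Mir126a kept in the column of both strands, so these reads touched Mir126a but not Mir126b, in the bases beyond its ends. Taken alone, the column of both strands would leave Mir126a almost without reads, and the opposite-strand column would give the locus to Mir126b.

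**Figure D2:**
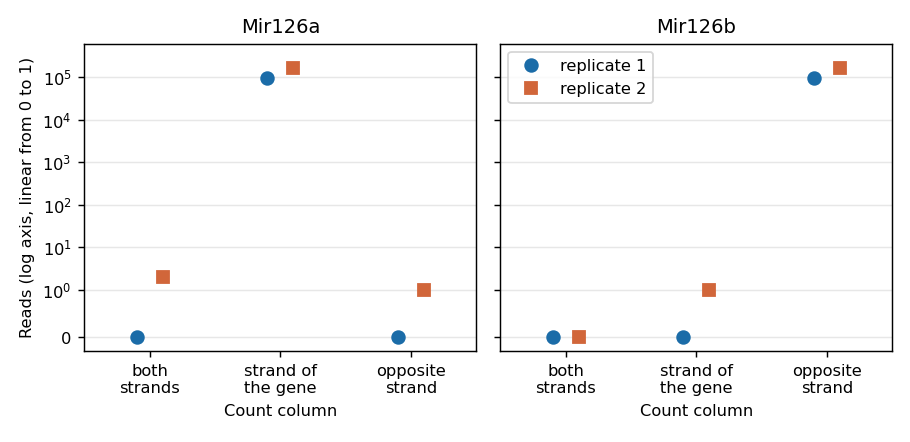
Reads (log axis, linear from 0 to 1) of Mir126a and Mir126b in the 3 count columns, circles being replicate 1 and squares replicate 2. Mir126a stands at 93483 and 164298 in the column of its own strand, and Mir126b at 93483 and 164296 in the opposite-strand column.

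The missing reads appear in a line of the tables for reads that touch more than 1 gene. That line held 325180 reads in replicate 1 and 375109 in replicate 2 for the column of both strands, and 0 for each stranded column. The Mir126 locus accounts for 93483 of them in replicate 1 (28.7%) and 164297 in replicate 2 (43.8%). It also makes up 28.7% and 43.8% of the total of the opposite-strand column. Most of the remainder of both came from the Mir378a locus, at 64.0% and 50.7% of the line.

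Minus-strand reads of the Mir126 locus, 0 and 1 in replicates 1 and 2, were set against opposite-strand reads elsewhere. The background was the 2135 microRNA genes that overlap no other microRNA gene, which had 19 opposite-strand reads beside 832240 sense reads in replicate 1 and 25 beside 818282 in replicate 2. That is 0.00228% (0.00137 to 0.00357) and 0.00306% (0.00198 to 0.00451), spread over 14 and 12 genes, with at most 4 reads of 1 gene in replicate 1 (Mir675) and 8 in replicate 2 (Mir122). At the Mir126 locus the minus-strand share was 0 of 93483 reads in replicate 1. By the floor of 3 counts this allows up to 0.00321%, while the upper end of the exact interval was 0.00395%. In replicate 2 the share was 6.09e-04% (exact interval 1.54e-05 to 0.00339). Neither library differed from the background by a two-sided Fisher's exact test (p = 0.25 and p = 0.11). In replicate 2 the share was lower than the summed background without Mir22, its most abundant gene (Fisher's exact p = 0.0457), and the sum of both libraries, which was added after the values were seen, gave 1 of 257782 reads and a Fisher's exact p of 0.0259. The summed background rests on few genes. Genes with at least 100 sense reads and no overlapping gene numbered 125 in replicate 1 and 120 in replicate 2. Of these, 119 and 117 had no opposite-strand read, so the median gene stood at 0% in both libraries. At a share of 0.00306%, most of these genes have too few sense reads to show 1 opposite-strand read. Their median of 0% therefore gives no level against which to read the Mir126 locus.

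The annotation holds 32 pairs of microRNA genes that overlap on opposite strands, and the 64 genes in them held 28.1% of the sense reads in replicate 1 and 31.4% in replicate 2. In 11 pairs the stronger gene reached 100 CPM on average. In all 11, under 1% of the sense reads of the pair were left in the column of both strands in each library, and in 10 the weaker gene held under 1% of them. Mir378a had 208057 and 190232 sense reads in replicates 1 and 2, and its partner Gm25301 had 1 read in each. Mir486, a microRNA of muscle and red cells, had 5963 and 4423 sense reads, and its partner Mir3107 had 133 and 49. In the other 8 pairs the weaker gene had 0 reads in both libraries: Mir191 with Gm24083, Mirlet7e with Gm25927, Mir30e with Mir30f, Mir497 with Mir497b, Mir338 with Mir3065, Mirlet7f-1 with Gm24111, Mir24-2 with Mir3074-2 and Mir451a with Mir451b.

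The Mir126 pair was compared with the other pairs of 100 CPM or more that had any read of the weaker gene, a choice made after the values were seen. Below that level, Mir3074-1 had 14 and 11 reads beside 110 and 118 of Mir24-1, or 11.3% and 8.53% of its pair, and was not tested. Mir3107 made up 2.18% of its pair in replicate 1 and 1.10% in replicate 2, against 0% and 6.09e-04% for Mir126b (two-sided Fisher's exact tests adjusted over 4 comparisons, p = 4.62e-162 and p = 4.11e-76). Because pairs were kept for having reads of the weaker gene, a higher share than that of Mir126b was largely set by the choice. Sequence shared between Mir486 and Mir3107 themselves was not examined, so how their reads divide between the strands is open. Gm25301 made up 4.81e-04% and 5.26e-04% of its pair, and the adjusted Fisher's exact p against Mir126b was 1 in both libraries. One read in each of these pairs is too few to set their shares apart or to call them alike.

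**Figure D3:**
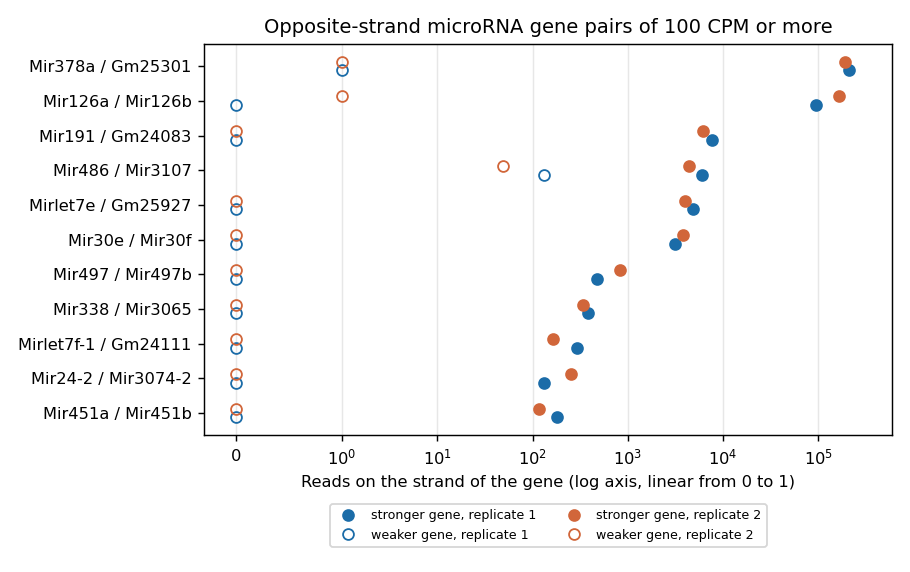
Sense reads (log axis, linear from 0 to 1) of the stronger gene (filled) and the weaker gene (open) in the 11 opposite-strand pairs of 100 CPM or more, in blue for replicate 1 and orange for replicate 2. Mir126b stands at 0 and 1 and Mir3107 at 133 and 49.

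Mir126a had more reads in replicate 2 than in replicate 1, beyond counting error, but did not pass the test with the spread that edgeR estimated between these libraries. With library sizes scaled by TMM, a trimmed mean that sets most genes level, the fold was 2.11 (95% counting interval 2.09 to 2.13). The exact conditional binomial test, adjusted over the 321 genes with 2 CPM or more in both libraries, gave a p at the smallest value kept, 1e-300. It was 1 of 60 genes called higher, 18.7% of those tested, while another 60, also 18.7%, were called lower. This test sets 1 library against 1 library and counts only sampling noise as error, so at this depth a call says little, and "called" below has that meaning. With the common dispersion that edgeR estimated from both libraries as replicates, added after the values were seen, 5 genes (1.56%) were called and Mir126a was not (edgeR exact test, p = 0.128, adjusted p = 1). That spread comes from the same 2 libraries that are then compared, so few genes can pass. The lost call therefore does not show that Mir126a was level. With total sense counts the binomial split was 35 higher (10.9%) and 114 lower (35.5%), and the median log2 ratio of all genes moved from -0.01 to -0.30. Mir126b did not reach 2 CPM and was not tested. This compares the libraries, which are replicates of 1 group, and no condition.

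The difference was large for a gene of this abundance but not outside what the libraries show for other genes. By the size of the log2 ratio in either direction, Mir126a ranked 13 among the 128 genes of at least 100 CPM, and counted from the highest ratio it ranked 8. The median size for these genes was 0.31, against a log2 ratio of 1.08 for Mir126a. Among the 20 most abundant genes only Mir22, known from striated muscle, had a higher ratio. After TMM scaling Mir126a stood at 72627 CPM in replicate 1 and 153106 in replicate 2, a coefficient of variation of 50.4%, while the common value over all tested genes by edgeR was 33.8%.

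Within a library, reads of Mir126a per read of another gene need no scaling. Replicate 1 had 1.66 reads of Mir126a per read of Mir143, the smooth muscle microRNA of vessel walls, and replicate 2 had 3.37. Per read of Mir206, specific to skeletal muscle, it had 2.45 and 4.18. Per read of Mir21a, raised in fibroblasts and injured tissue, it had 4.56 and 18.3. Per read of Mir378a the values were 0.449 and 0.864, and per read of Mir22, 1.53 and 1.27. Mir126a was thus higher in replicate 2 against Mir143, Mir206, Mir21a and Mir378a, and lower against Mir22, which was chosen for its abundance after the values were seen. Against the blood genes Mir150 (lymphocytes) and Mir451a (red cells) it stood 2.76-fold and 2.70-fold higher in replicate 2, and against Mir144, the cluster partner of Mir451a with 9 and 65 reads, at 0.243-fold. Mir144 was also chosen after its values were seen.

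**Figure D4:**
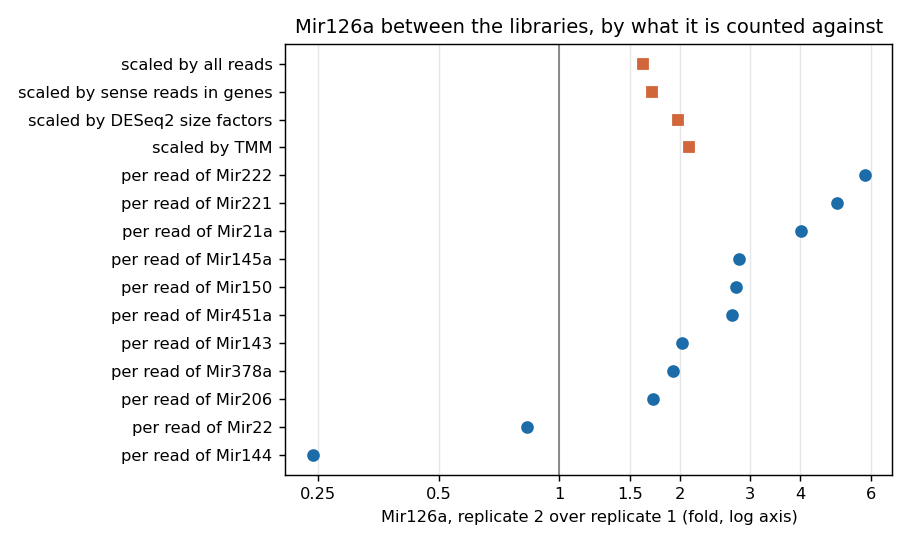
Fold of Mir126a in replicate 2 over replicate 1 (log axis), scaled by 4 kinds of library size (squares) or taken per read of another gene in the same library (circles). The scaled values run from 1.62 with all reads to 2.11 with TMM, and the values per read from 0.243 for Mir144 to 5.79 for Mir222.

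The other genes on a list of microRNAs known from endothelium, drawn with earlier results known, did not follow Mir126a as a group. The miR-23, miR-27 and miR-24 clusters, which moved in its direction, form a separate list below. Of the 11 genes on the endothelium list, 10 were tested, 4 were called higher in replicate 2 (Mir126a included), 4 lower and 2 neither, beside the 18.7% of all genes in each direction. The median log2 ratio of the list was -0.13, against -0.01 over all genes tested. With total sense counts 1 of the 10 was called higher, Mir126a, and the same 4 lower. Of all genes tested, 10.9% were then called higher and 35.5% lower. Mir100, which restrains mTOR, had 23385 CPM in replicate 1 and 17241 CPM in replicate 2 and was lower in replicate 2 at 0.912-fold. Mir10a, of the Hox clusters, had 2431 and 2392 CPM and was higher at 1.22-fold with TMM, in the opposite direction to its CPM. Mir92-1 of the miR-17-92 cluster (1058 and 973 CPM, 1.14-fold) and Mir130a (901 and 875 CPM, 1.20-fold) were likewise called higher with TMM and had the lower CPM in replicate 2. None of the 3 was called higher with total counts.

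The members that differed most besides Mir126a went the other way. Mir221, which acts on the growth of endothelial and smooth muscle cells, had 900 CPM in replicate 1 and 311 CPM in replicate 2, at 0.427-fold (0.378 to 0.481). Its neighbour Mir222 had 68.3 and 20.1 CPM, at 0.364-fold (0.221 to 0.582). Mir132, an angiogenic microRNA also abundant in neurons, had 332 and 123 CPM, at 0.459-fold (0.377 to 0.557). Mir210, induced by low oxygen, had 57.9 and 42.7 CPM, and Mir296 had 8.64 and 5.03 CPM; neither passed the test. Mir126a was the most abundant gene of the list in both libraries. The 9 genes of the list other than Mir126a and Mir126b together had 29142 and 21982 CPM in replicates 1 and 2, where Mir126a alone had 80768 and 137673.

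The microRNAs of the vessel wall around the endothelium were less far apart between the libraries than Mir126a. Mir143 had 48618 and 40817 CPM and was called higher at 1.04-fold with TMM and lower with DESeq2 size factors or total counts, while Mir145a of the same cluster had 2181 and 1323 CPM and was lower at 0.75-fold. Mir145b had 0 and 1 read and was not tested. This list of 3 genes thus had 1 higher and 1 lower of 2 tested with TMM, beside 18.7% of all genes in each direction. Its median log2 ratio was -0.18. With DESeq2 size factors or total counts it had 0 higher and 2 lower. Of all 321 genes tested, 55 were then higher and 78 lower with DESeq2 size factors, and 35 and 114 with total counts.

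**Figure D5:**
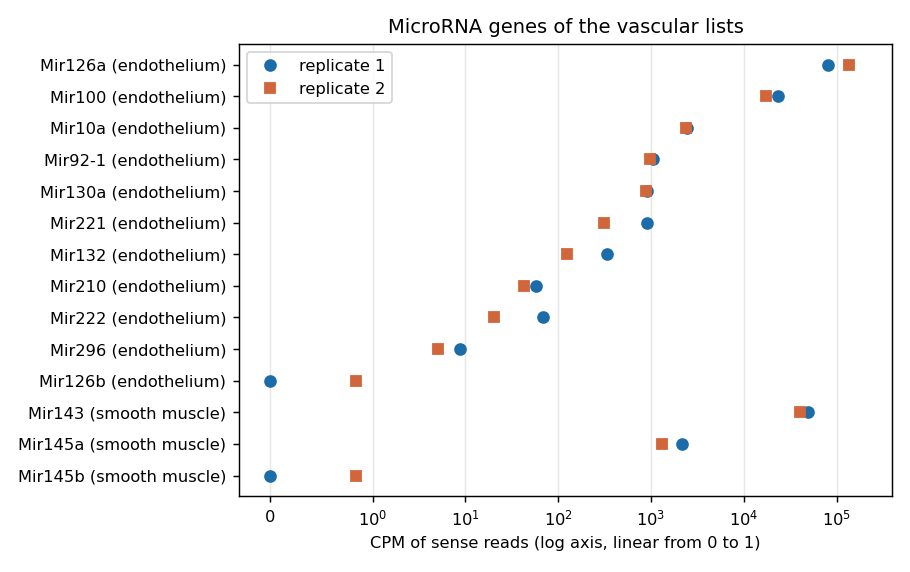
CPM of sense reads (log axis, linear from 0 to 1) for each gene of the endothelium and smooth muscle lists, circles being replicate 1 and squares replicate 2. Mir126a stands at 80768 and 137673 CPM, while Mir221 stands at 900 and 311 and Mir222 at 68.3 and 20.1.

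The miR-23, miR-27 and miR-24 clusters, which act in vessel growth and are expressed in many cell types, moved in the direction of Mir126a. Of 6 genes, 5 were called higher in replicate 2 and none lower (18.7% of all genes in each direction), with a median log2 ratio of 0.53. With total sense counts 4 were called higher, without Mir27a, and none lower, and the median was 0.22. All genes tested then had 10.9% called higher and 35.5% lower, with a median of -0.30. Mir23a had 26609 and 35940 CPM, at 1.67-fold, and Mir23b had 26504 and 30672 CPM, at 1.43-fold. All 6 share a run of 20 bases with a gene at another place, so part of their reads may be counted in no gene. Mir126a shares no such run.

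Markers of the other cell types in the muscle follow by list, beside 18.7% of all tested genes called in each direction (10.9% higher and 35.5% lower with total sense counts), and their part in the difference of Mir126a was not tested. The 5 platelet and leukocyte genes summed to 3182 CPM in replicate 1 and 2252 in replicate 2, with 1 of 4 tested called lower, Mir150 at 1348 and 833 CPM, and none higher. Mir155 had 1698 and 1305 CPM and did not pass, Mir223 of platelets and myeloid cells had 76.0 and 46.9 CPM and did not pass, and Mir142b was at 0 in both. With total sense counts Mir155, Mir150 and Mir223 were all called lower. The 3 erythroid genes summed to 5315 and 3859 CPM, mostly Mir486 at 5152 and 3706 CPM, a gene that muscle expresses too, with Mir451a at 156 and 98.0 CPM. Mir486 was called lower, as was Mir451a with total sense counts, and Mir144, at 7.78 and 54.5 CPM, was called higher (8.66-fold, 4.29 to 19.8). The 8 skeletal muscle genes summed to 33545 and 33605 CPM, led by Mir206 at 32948 and 32931 CPM and Mir499 at 381 and 465 CPM, with 3 of 7 tested higher and 1 lower, or 2 and 2 with total sense counts. Mir1a-1, Mir1a-2, Mir133a-1, Mir133a-2 and Mir133b of this list share a run of 20 bases with a gene at another place. Part of their reads may thus be counted in no gene and be missing from the sum. The 5 fibroblast genes summed to 20445 and 9688 CPM, with 1 of 4 tested lower, Mir21a at 17726 and 7511 CPM, and none higher, while Mir214 had 2701 and 2164 CPM and was called lower only with DESeq2 size factors or total counts. Mir199a-1, Mir199a-2 and Mir199b of this list share such a run too. The summed CPM of the platelet and leukocyte, erythroid and fibroblast lists was thus lower in replicate 2, where Mir126a was higher. With TMM these sums stood at 0.875-fold, 0.898-fold and 0.586-fold. The median log2 ratio of all genes tested was also below 0 with total sense counts, at -0.30. The fibroblast sum was mostly Mir21a. The skeletal muscle sum was nearly level in CPM and 1.24-fold higher with TMM.

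The genes of 100 CPM or more whose log2 ratio lay nearest to that of Mir126a were Mir29c, Mir497, Mir15b, Mir24-2 and Mir193a. Mir29c had 1189 and 2041 CPM in replicates 1 and 2, at 2.12-fold (1.99 to 2.27), and Mir497 had 412 and 698 CPM, at 2.09-fold (1.87 to 2.35). Mir15b stood at 1.95-fold, Mir24-2 at 2.31-fold and Mir193a at 2.35-fold. Their log2 ratios differed from that of Mir126a by 0.0098 for Mir29c to 0.16 for Mir193a, over 2 libraries only. Mir29c and Mir24-2 share a run of 20 bases with a gene at another place, and Mir497 and Mir24-2, like Mir126a, have a partner on the opposite strand.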

How the data were processed

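Small RNA was measured in 2 gastrocnemius libraries of 1 group, with 3 count columns per gene. The authors deposited raw read counts per microRNA gene, not normalized, on mm10 with GENCODE M21 per the deposited text descriptions. An aligner is not given in the sources used here, and the layout is that of STAR gene counts, with 4 lines of totals that name no gene, which entered neither library sizes nor tests. The stranded column with more reads was used as sense.

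All 2202 gene identifiers matched the GENCODE M21 annotation. CPM were computed over sense reads in microRNA genes. Library sizes were scaled by TMM (edgeR 4.0.16, R 4.3.3; factors 1.11 and 0.899) and genes of 2 CPM or more in both libraries were tested by a two-sided exact conditional binomial test with Benjamini-Hochberg adjustment at 0.05. With 1 group, no quasi-likelihood contrast could be fitted. Log2 ratios had a pseudocount of 1 CPM. Strands were compared by Fisher's exact test. Hairpins were folded with ViennaRNA 2.7.2. Python 3.11.15 and scipy 1.17.1 were used for the rest. The ratio test was tested on simulated data.

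Named were both members, pairs of 100 CPM or more, the vascular lists, the 2 most abundant genes of each other list, and the 5 genes nearest in ratio. Members and lists were chosen with earlier results of these data known.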

Additional observations from a re-analysis of the deposited data

How the results depend on the processing

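The log2 ratio of Mir126a was above 0 in every setting that gave one, at 0.70 to 1.08. At this depth its call against counting error alone could hardly be lost, and it passed with 7 other settings (DESeq2 1.42.0 size factors, total sense counts, total of all reads, filters of 10 CPM or none, 0.1 CPM as pseudocount, and edgeR with its exact test at 0.01 dispersion, adjusted p = 5.63e-06). The pseudocount does not enter the test, and the filters change only the adjustment, so these settings could not have ended the call. With edgeR at the common dispersion of 0.114, estimated from the same 2 libraries and added after the data were seen, the log2 ratio was 1.08 and the call was lost (adjusted p = 1). The column of both strands left it too few reads for a ratio. Its mean level of 109221 CPM was 20023 CPM over all reads and 1.22 CPM in the column of both strands, and leaving out a replicate gave 80768 to 137673 CPM. Against the main count of 60 genes higher and 60 lower in replicate 2, total sense counts gave 35 and 114, the total of all reads 33 and 125, and the edgeR exact test at 0.01 29 and 24, or 53 in all against 120. At 0.114 it gave 4 and 1, or 5 in all, with 11 at an unadjusted p under 0.05. The minus-strand comparison passed in replicate 2 without the most abundant background gene (Fisher's exact p = 0.0457). For the sum of both libraries, leaving out a replicate ended the call (Fisher's exact p of 0.11 to 0.25). With total sense counts the endothelium median fell to -0.43 and the smooth muscle median to -0.49, beside -0.30 over all genes tested. The latter was 0.05 without a filter, where Mir145b entered. The skeletal muscle median of 0.11 was -0.19 with total sense counts and -0.12 without a filter. The causes were not tested. No paired analysis was possible because the series has 1 group.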
